A study of Mus musculus with 16 samples.

Results

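The forkhead genes Foxf1, Foxf2, Foxc1, Foxc2, Foxo1, Foxo3, Foxp1 and Foxn3 encode transcription factors that share the forkhead DNA-binding domain. They were chosen by gene symbol, and all 8 were found among the 54532 genes of each deposited table. The tables hold RNA-seq of mouse pulmonary endothelial cells (ECs), captured on beads against CD31 after CD45-bearing cells had been removed, 24 h after an intratracheal injection. In the first experiment, male WT C57/BL6J mice, 8 weeks old, received either saline (n = 4) or LPS, a bacterial lipopolysaccharide that injures the lung, at 10 mg/kg (n = 6). In the second experiment, Fgfr1 loxP/loxP mice (n = 3) and Fgfr1 iΔEC/iΔEC mice (n = 3) were all given tamoxifen and then 2 mg/kg LPS. The iΔEC/iΔEC mice carry the same floxed Fgfr1 alleles together with VE-cadherin-CreERT2, a tamoxifen-dependent Cre driven by the promoter of the EC gene Cdh5, and the loxP/loxP mice are littermates without it. The second experiment held no saline group, and its mice were adults, with no age in weeks given in the sources used here. The labels number separate samples and do not say how many mice each stands for, so the p-values measure the spread between these samples.

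Forkhead factors bind DNA at short sites rich in A and T around the core TAAACA. In the lung FOXF1 is needed for the growth and upkeep of capillaries and supports the genes of VEGF receptors and of Tie2, and Foxf1 is also active in the mesenchyme. FOXF2 is known from pericytes and fibroblasts, and FOXC1 and FOXC2 act in arteries, lymphatic vessels and perivascular cells. FOXO1 and FOXO3 hold cells in quiescence and under nutrient stress, and they leave the nucleus when AKT phosphorylates them and 14-3-3 proteins bind them, so that their activity is set largely after transcription. FOXP1 and FOXN3 act mainly as repressors in many cell types, leukocytes included.

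On GRCm38, 4 of the genes lie in pairs. Foxf1 (chr8:121084386-121088144, plus strand) lies 28026 bases from Foxc2 (chr8:121116171-121118895, plus strand), and the long noncoding RNA gene Fendrr (chr8:121054882-121083110, minus strand) starts on the other side of Foxf1, with 1275 bases between the gene bodies. Foxf2 (chr13:31625816-31631403, plus strand) and Foxc1 (chr13:31806633-31812476, plus strand) are 175229 bases apart. Foxo1 (chr3:52268336-52353221, plus strand), Foxo3 (chr10:42181841-42276755, minus strand), Foxp1 (chr6:98925338-99522721, minus strand) and Foxn3 (chr12:99190078-99563582, minus strand) stand alone. The values are per gene, over its exons. The annotated gene model Gm20388 overlaps Foxf1, Foxc2 and Fendrr, an antisense gene (Gm20402) overlaps Foxo1, another (3300002A11Rik) overlaps Foxn3, and Gm20696 overlaps Foxp1 on the same strand. Whether the counting used the strand is not given in the sources used here, so reads from these overlapping genes cannot be told apart from those of the forkhead genes.

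Promoters were taken from RefSeq on GRCm38.p6 as 250 bases before and 50 bases after each annotated start, and 6 of the 8 genes had at least 1 promoter there (8 promoters in all). The forkhead core TAAACA, searched on both strands, occurred in 13.4% of the 32851 promoters of the table, and the longer form GTAAACA, which contains the core, occurred in 3.65%. Among the 6 genes the core was found only in Foxp1, in each of its 3 promoters, and the longer form in none. Fendrr held the longer form. These promoters are shown because Foxp1, Foxo1 and Fendrr had lower levels in every LPS library than in any saline library of the first experiment and differ in whether the core is present. Capitals mark the core or, in Fendrr, the longer form, on either strand. A match describes letters and not binding, and the absence of one says only that these letters are not in this window.
Foxp1 promoter 1 (chr6:99520944-99521243, minus strand): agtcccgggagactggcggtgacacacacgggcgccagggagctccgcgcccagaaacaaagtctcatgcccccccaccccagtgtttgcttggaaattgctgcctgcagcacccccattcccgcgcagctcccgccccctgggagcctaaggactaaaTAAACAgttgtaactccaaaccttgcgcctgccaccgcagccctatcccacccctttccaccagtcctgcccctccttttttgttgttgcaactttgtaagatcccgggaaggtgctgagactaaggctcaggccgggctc
Foxp1 promoter 2 (chr6:99266466-99266765, minus strand): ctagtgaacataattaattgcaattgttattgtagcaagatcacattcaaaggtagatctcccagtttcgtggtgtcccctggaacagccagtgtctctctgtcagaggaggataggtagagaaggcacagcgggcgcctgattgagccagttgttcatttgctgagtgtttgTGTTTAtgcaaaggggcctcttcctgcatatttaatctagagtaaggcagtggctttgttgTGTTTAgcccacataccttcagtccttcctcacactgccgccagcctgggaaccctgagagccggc
Foxp1 promoter 3 (chr6:99028249-99028548, minus strand): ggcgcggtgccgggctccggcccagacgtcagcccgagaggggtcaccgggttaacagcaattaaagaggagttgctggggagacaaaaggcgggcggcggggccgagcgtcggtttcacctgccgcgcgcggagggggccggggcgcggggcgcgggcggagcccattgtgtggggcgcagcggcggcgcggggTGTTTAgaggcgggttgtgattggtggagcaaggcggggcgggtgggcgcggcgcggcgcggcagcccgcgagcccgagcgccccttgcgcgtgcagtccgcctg
Foxo1 promoter (chr3:52268087-52268386, plus strand): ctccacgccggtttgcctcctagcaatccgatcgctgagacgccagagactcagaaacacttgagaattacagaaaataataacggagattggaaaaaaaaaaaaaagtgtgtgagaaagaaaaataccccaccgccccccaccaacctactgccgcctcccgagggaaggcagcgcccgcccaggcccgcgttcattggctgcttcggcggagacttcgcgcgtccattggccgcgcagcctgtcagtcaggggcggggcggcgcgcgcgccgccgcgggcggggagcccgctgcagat
Fendrr promoter (chr8:121083061-121083360, minus strand): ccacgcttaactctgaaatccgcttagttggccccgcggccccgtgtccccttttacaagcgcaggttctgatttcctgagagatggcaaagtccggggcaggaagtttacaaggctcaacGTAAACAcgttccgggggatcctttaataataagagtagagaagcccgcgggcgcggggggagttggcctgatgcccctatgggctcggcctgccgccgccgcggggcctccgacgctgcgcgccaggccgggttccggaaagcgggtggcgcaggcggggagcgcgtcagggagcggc

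Each saline library held 13478726 to 18807007 reads on genes (median 16458086), and each LPS library 17840221 to 19043015 (median 18798972). There were 15969575 to 17002788 in loxP/loxP and 16642177 to 16943522 in iΔEC/iΔEC libraries. Values are given as FPKM, as the authors deposited them, which divides the reads on a gene by its length and by a size for the library. The sizes found in the values were not the read totals, at 22126775 against 18807007 reads in saline 2, for instance, and 13228951 against 13478726 in saline 1. Foxf1 was read most, with 5834 to 27442 reads per library of the first experiment, while Foxc2 rested on 7 to 66 reads and Foxc1 on 19 to 167 reads there.

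The labelled cell type was checked against marker lists. The endothelial list (Cdh5, Pecam1, Cldn5 and 7 others) was high in every library, and none of its genes was at 0. Its summed level was 5740, 3420, 4240 and 3570 FPKM in saline 1 to 4, and 1530, 3640, 2310, 3600, 2760 and 3340 FPKM in LPS 1 to 6. Cldn5 was its most abundant gene on average. Other cell types were read in the same fraction. In the first experiment the neutrophil list summed above the endothelial list in LPS 1 (2730 FPKM) and LPS 2 (6650 FPKM) only. The macrophage (1560 FPKM) and leukocyte lists (3220 FPKM) summed above it in LPS 1 only. The epithelial list summed to 1080 to 2860 FPKM in saline and 269 to 961 FPKM in LPS. In loxP/loxP 2 the neutrophil list (2560 against 2550 FPKM) stood above the endothelial list. So did the epithelial list in loxP/loxP 3 (2940 against 2620 FPKM). The leukocyte list (Ptprc, which encodes CD45, and 5 others) summed to 365, 148, 104 and 129 FPKM in saline 1 to 4. In LPS 1 to 6 it summed to 3220, 3300, 2110, 2320, 2630 and 1350 FPKM, and Tyrobp was its most abundant gene on average. Of the lists of markers, 6 of 6 leukocyte genes, 7 of 8 macrophage genes and 6 of 8 neutrophil genes rose after LPS, while 5 of 10 endothelial, 4 of 6 fibroblast and 2 of 7 mural genes tested fell. Of the lymphocyte genes 3 of 4 fell, and of the erythroid genes 3 of 4 rose. Over all genes tested 29.5% rose and 23.7% fell. Without saline 1, described next, 6 of 6 leukocyte, 7 of 8 macrophage and 8 of 8 neutrophil genes rose, and 4 of 10 endothelial, 3 of 6 fibroblast and 2 of 7 mural genes fell, while Acta2 (mural) rose and 1 of 4 lymphocyte genes fell. Prox1, the defining factor of lymphatic ECs, stayed between 0.0266 and 0.28 FPKM in the first experiment. In such bulk samples fewer cells of a type and less RNA per cell cannot be told apart.

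**Figure D1:**
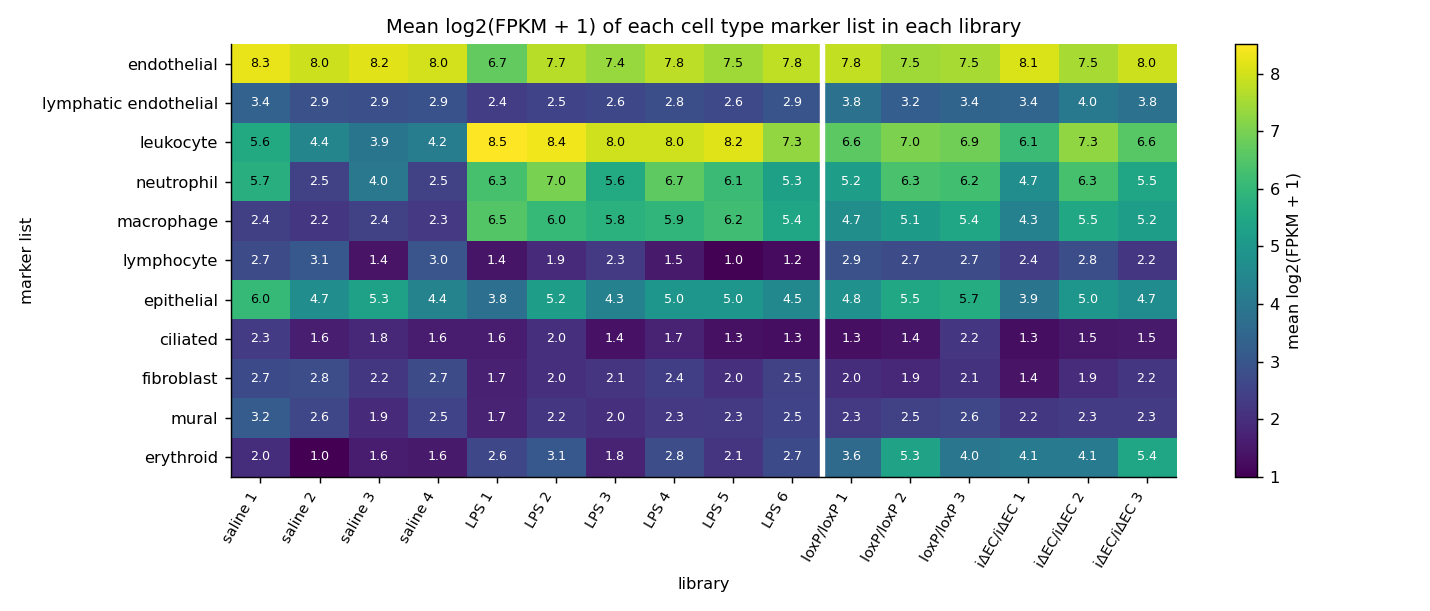
Mean log2(FPKM + 1) of each cell type marker list (rows) in each of the 16 libraries (columns), with the value printed in each cell and the first and second experiment separated by a white gap. The LPS libraries of the first experiment have higher leukocyte, neutrophil and macrophage values than most saline libraries, and saline 1 has a neutrophil value of 5.73, where the other saline libraries have 2.45 to 4.01.

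Saline 1 stood apart from the other saline libraries before any comparison. Its neutrophil list summed to 1400 FPKM, against 74.0 to 311 FPKM in saline 2 to 4, and its Lyve1 level was 1230 FPKM, against 236 to 434 FPKM. Several forkhead genes differed with it. Relative to the mean of the other 3 saline libraries, saline 1 was at 7.74 times for Foxc2, 3.17 for Foxf1, 3.12 for Foxc1, 2.91 for Foxo3 and 1.74 for Foxn3. Foxp1 (1.31), Foxo1 (0.965) and Foxf2 (0.708) stood nearer to the others. The difference of each of the 8 forkhead genes after LPS and the counts over gene lists are therefore given with and without this library.

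The first comparison asked how the levels of these genes in WT pulmonary ECs differ after LPS. Of the 7 genes averaging 0.5 FPKM or more, 4 fell (Foxf2, Foxc1, Foxo1 and Foxp1), 0 rose and 3 passed in neither direction (Foxf1, Foxo3 and Foxn3), with the adjusted p required to be 0.05 or lower (limma on log2(FPKM + 1), Benjamini-Hochberg over 14893 genes). Over all genes tested 53.2% passed, 29.5% higher and 23.7% lower in LPS. The median log2 fold change of the 7 genes was -0.71, and that of all genes tested was 0.013. In the 4 genes that fell, every LPS library lay below every saline library. Groups stood apart in 39.4% of all genes tested, 22.7% higher and 16.7% lower in LPS. Only Foxf2 and Foxo1 also passed the stricter call, for which the log2 fold change also had to be 1 or more in size, where 6.79% of genes were lower. That size depends on the setting. Foxc1 reached it with a pseudocount of 0.1 (-1.39) and limma-voom (-1.61), and Foxp1 on total reads (-1.03) and with quantile normalization (-1.10). On the endothelial scale described below, neither Foxf2 (-0.98) nor Foxo1 (-0.68) did. The counts rest partly on saline 1 and on how the libraries are scaled. Scaled on total reads or quantile normalized, Foxf1 and Foxn3 passed as lower too, and the 4 genes above kept their calls. On total reads 3473 of all genes were then higher and 4622 lower, and with quantile normalization 3570 and 4295. Without saline 1 the gene Foxc1 is under the FPKM limit and 3 of 6 genes tested fell, with a median of -0.52, beside 25.5% of all genes. Scaled on the endothelial marker list, so that its geometric mean is equal in all libraries, 2 of 7 fell (Foxf2 and Foxo1), with a median of -0.24, beside 6.28% of all genes, while the median of all genes moved to 0.498. Of the marker lists on this scale, 2 endothelial genes rose and 2 fell, 1 fibroblast and 1 mural gene rose and 0 fell, 1 of 4 lymphocyte genes fell, and 6 of 6 leukocyte, 7 of 8 macrophage, 8 of 8 neutrophil and 4 of 4 erythroid genes rose.

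**Figure D2:**
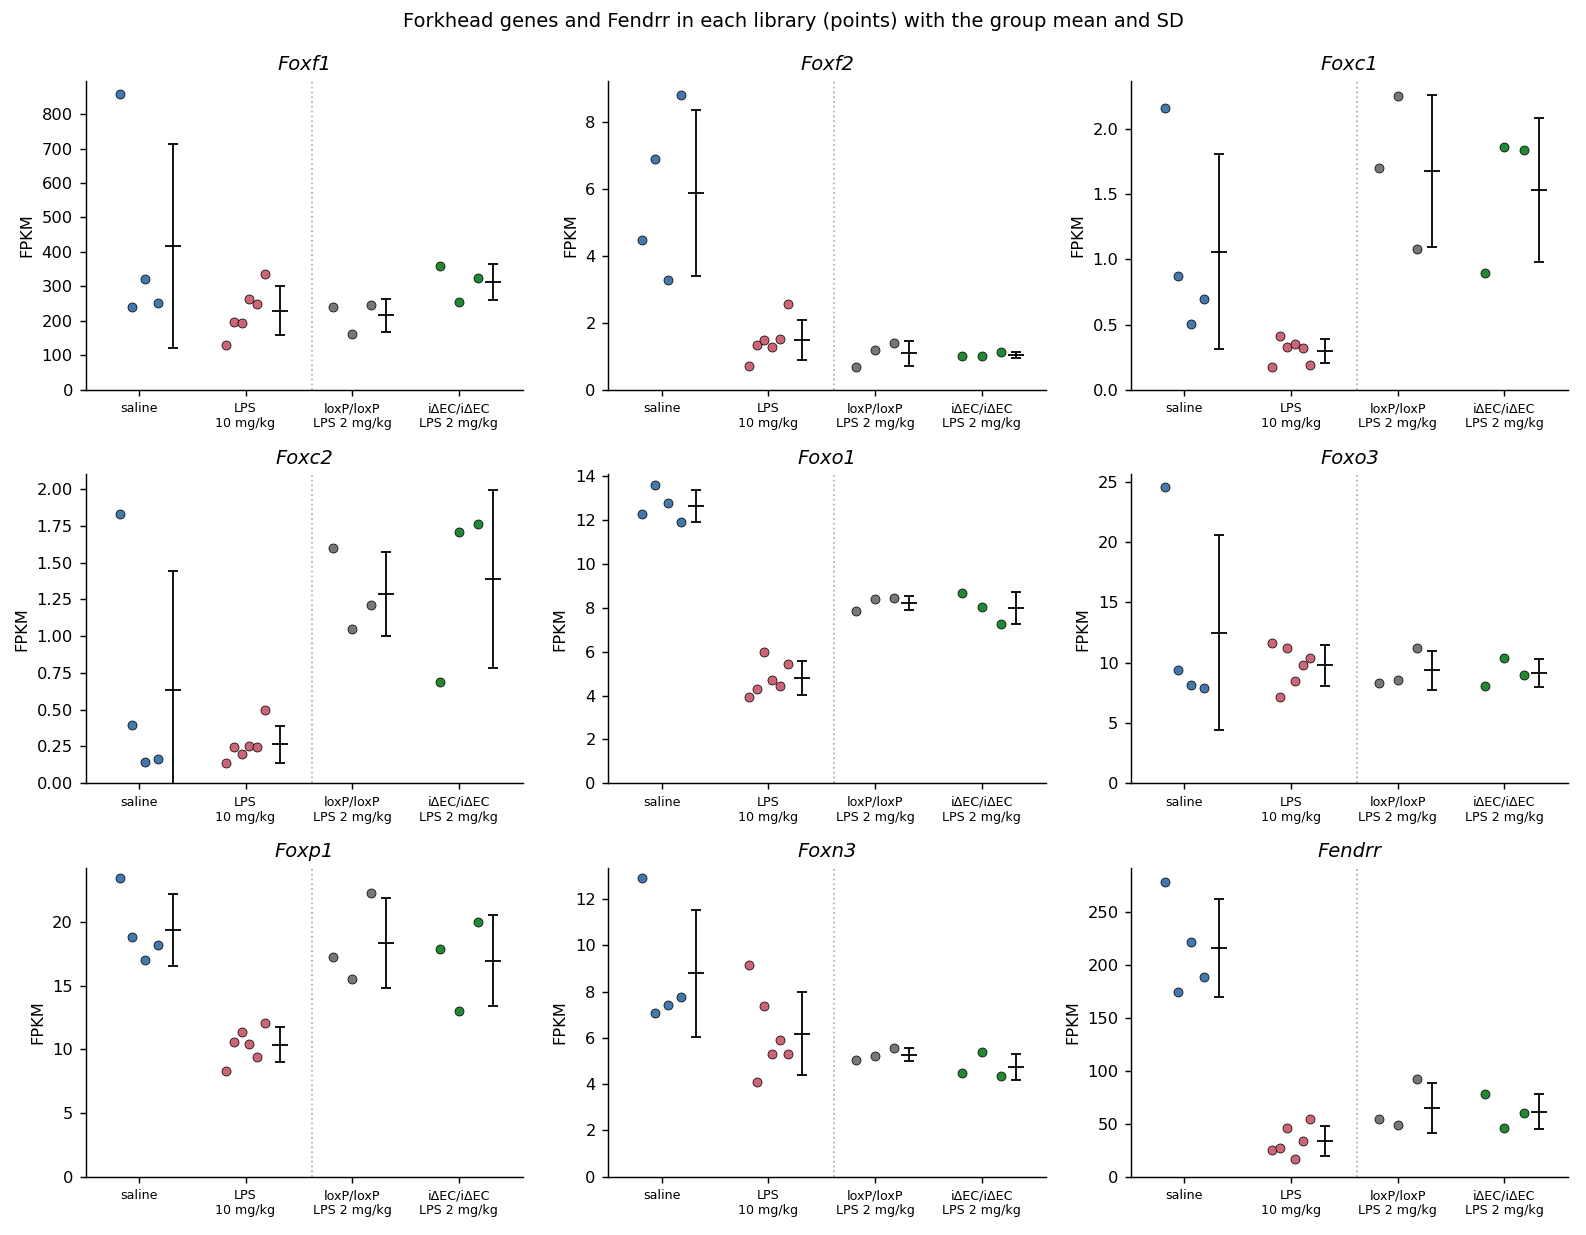
FPKM (vertical axes, linear from 0) of the 8 forkhead genes and of Fendrr in each library, with points for libraries and bars for the mean ± SD of a group (the bar of Foxc2 in saline runs below 0 and is cut there); a dotted line separates the experiments, whose tables were normalized separately. The LPS points of Foxf2, Foxc1, Foxo1, Foxp1 and Fendrr all lie below the saline points, and saline 1 is the high point of Foxf1, Foxc1, Foxc2, Foxo3 and Foxn3.

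Foxf1 was by far the most abundant of the 8 genes. Its level was 859, 240, 322 and 251 FPKM in saline 1 to 4, and it ran from 131 to 337 FPKM in LPS, with a median of 224. The groups overlapped, and LPS 1 held the lowest value and LPS 6 the highest of the LPS group. The log2 fold change was -0.71 ± 0.37 (SE), with a 95% interval from -1.52 to 0.10 (adjusted p = 0.125, limma). Much of that difference came with saline 1, since without it the saline mean was 271 ± 44.5 FPKM (SD, n = 3) and the log2 fold change was -0.29 (adjusted p = 0.372, limma). Scaled on the endothelial list it was -0.07. Scaling on total reads gave -0.91 (adjusted p = 0.0374, limma), so that a call for Foxf1 depends on the scaling.

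Foxf2, the paralog of Foxf1, was 4.48, 6.90, 3.27 and 8.82 FPKM in saline 1 to 4. In LPS it ran from 0.713 to 2.56 FPKM, with a median of 1.41. The groups did not overlap, and saline 3, the lowest saline library, still stood above LPS 6, the highest LPS library. The log2 fold change was -1.43 ± 0.25 (SE, adjusted p = 0.000675, limma), the means being 5.87 and 1.48 FPKM. It was -1.51 without saline 1 and -0.98 when scaled on the endothelial list, and it passed the test each time. Among markers of the cells in which Foxf2 is known, 4 of 6 fibroblast genes fell (Tcf21 -0.91, Col3a1 -0.80, Col1a2 -0.75 and Col1a1 -0.61 on the log2 scale, with a list median of -0.68), and 3 of 6 without saline 1. Pdgfra (-0.51, adjusted p = 0.161) and Dcn, which went the other way (0.28, adjusted p = 0.102), did not pass (limma). On the endothelial scale, where Foxf2 still passed, 0 fibroblast and 0 mural genes fell and 1 of each rose. As deposited, of 7 mural genes 2 fell (Pdgfrb, from 15.4 to 7.04 FPKM, and Notch3, from 7.12 to 2.60 FPKM, group means), beside 23.7% of all genes, and the other 5 did not pass the test. Acta2, the most abundant mural gene on average, was higher in LPS by 0.81 on the log2 scale (adjusted p = 0.230, limma), and by 1.53 without saline 1 (adjusted p = 0.00185). The summed mural list was 121, 51.7, 26.6 and 46.0 FPKM in saline 1 to 4 and 33.1 to 58.8 FPKM in LPS, with medians of 48.9 and 54.3 FPKM. The part of these cells in the Foxf2 difference was not tested.

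Foxc1 was low in this experiment, at 2.16, 0.874, 0.508 and 0.696 FPKM in saline 1 to 4 and at 0.177 to 0.411 FPKM in LPS (median 0.326). All 6 LPS libraries stood below saline 3, the lowest saline library. This was a log2 fold change of -0.61 ± 0.19 (SE, adjusted p = 0.0192, limma). With a mean of 0.297 FPKM in LPS, Foxc1 passed the limit of 0.5 FPKM through its saline level. At such levels the added 1 FPKM shrinks the change, and the ratio of the mean FPKM, LPS over saline, was 0.28. Without saline 1 the ratio was 0.428 and the groups were still apart (exact permutation p = 0.0119, n = 3 and 6). The call was lost on the endothelial scale (log2 fold change -0.37, adjusted p = 0.0981, limma).

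Foxc2 was at 1.83 FPKM in saline 1 and at 0.398, 0.144 and 0.168 FPKM in saline 2 to 4. In LPS it ran from 0.140 to 0.501 FPKM, with a median of 0.247. It lay under the limit of 0.5 FPKM for the test. The groups overlapped, with saline 3 and LPS 1 at 7 reads each (exact permutation p = 0.381, n = 4 and 6). Without saline 1 the ratio of the mean FPKM, LPS over saline, moved from 0.416 to 1.12 (exact permutation p = 0.774, n = 3 and 6). A difference between the groups was not detected, on 7 to 66 reads per library.

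Foxo1, the FOXO factor best known from the vascular endothelium, was 12.3, 13.6, 12.8 and 11.9 FPKM in saline 1 to 4, and 3.92 to 5.97 FPKM in LPS, with a median of 4.59. The highest LPS library stood far below the lowest saline library. The log2 fold change was -1.25 ± 0.11 (SE, 95% interval -1.50 to -0.99, adjusted p = 1.13e-05, limma), the means being 12.7 and 4.80 FPKM. It was -1.26 without saline 1 and -0.68 (adjusted p = 0.0152, limma) on the endothelial scale.

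Foxo3 had another pattern. It was 24.6 FPKM in saline 1, 9.38, 8.13 and 7.88 FPKM in saline 2 to 4 and 7.19 to 11.6 FPKM in LPS, with a median of 10.1. The 3 lower saline libraries lay inside the LPS range. The log2 fold change was -0.18 ± 0.27 (SE, 95% interval -0.79 to 0.42, adjusted p = 0.590, limma), and it changed sign to 0.18 (adjusted p = 0.317) without saline 1 and to 0.40 (adjusted p = 0.327) on the endothelial scale. As a result the order of these FOXO genes differed between groups. Foxo1 was above Foxo3 in 3 of 4 saline libraries, with saline 1 the exception, and the ratio of Foxo1 to Foxo3 ran from 0.501 to 1.57 in saline and from 0.339 to 0.600 in LPS. Among Foxo1, Foxo3, Foxo4 and Foxo6 together, Foxo1 made up 21% to 32.3% of the summed FPKM in saline and 16% to 21.8% in LPS. The ranges meet because saline 1 is the lowest of the saline group.

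Foxp1 was 23.5, 18.8, 17.0 and 18.2 FPKM in saline 1 to 4. In LPS it ran from 8.34 to 12.1 FPKM, with a median of 10.5. Every LPS library stood below every saline library, at a log2 fold change of -0.84 ± 0.13 (SE, adjusted p = 0.000287, limma) and -0.75 without saline 1 (adjusted p = 0.000548). On the endothelial scale it was -0.24 and did not pass the test (adjusted p = 0.317, limma). Cdh5, the defining gene of the endothelial list, fell from 710 to 394 FPKM (log2 fold change -0.88, adjusted p = 0.00575, limma). Ptprb (-1.62), Tie1 (-1.07), Erg (-0.77) and Esam (-0.65) of that list fell too. The rest of it did not pass, namely Pecam1, which encodes CD31 (-0.17), Emcn (-0.12), Egfl7 (-0.24), Ramp2 (-0.33) and Cldn5 (-0.50). The ratio of Foxp1 to Cdh5 within a library was 0.0244 to 0.0297 in saline and 0.0216 to 0.0340 in LPS.

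Foxn3 was 12.9, 7.09, 7.44 and 7.75 FPKM in saline 1 to 4 and 4.11 to 9.13 FPKM in LPS, with a median of 5.61. The groups overlapped, since LPS 1 and LPS 3 reached the saline range. Its log2 fold change was -0.45 ± 0.21 (SE, 95% interval -0.90 to 0.01, adjusted p = 0.0910, limma). It was -0.26 without saline 1, and 0.13 on the endothelial scale. Scaling on total reads, which moved the median of all genes to -0.138, gave -0.62 (adjusted p = 0.0232), and leaving out LPS 1 gave -0.55 (adjusted p = 0.0336).

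**Figure D3:**
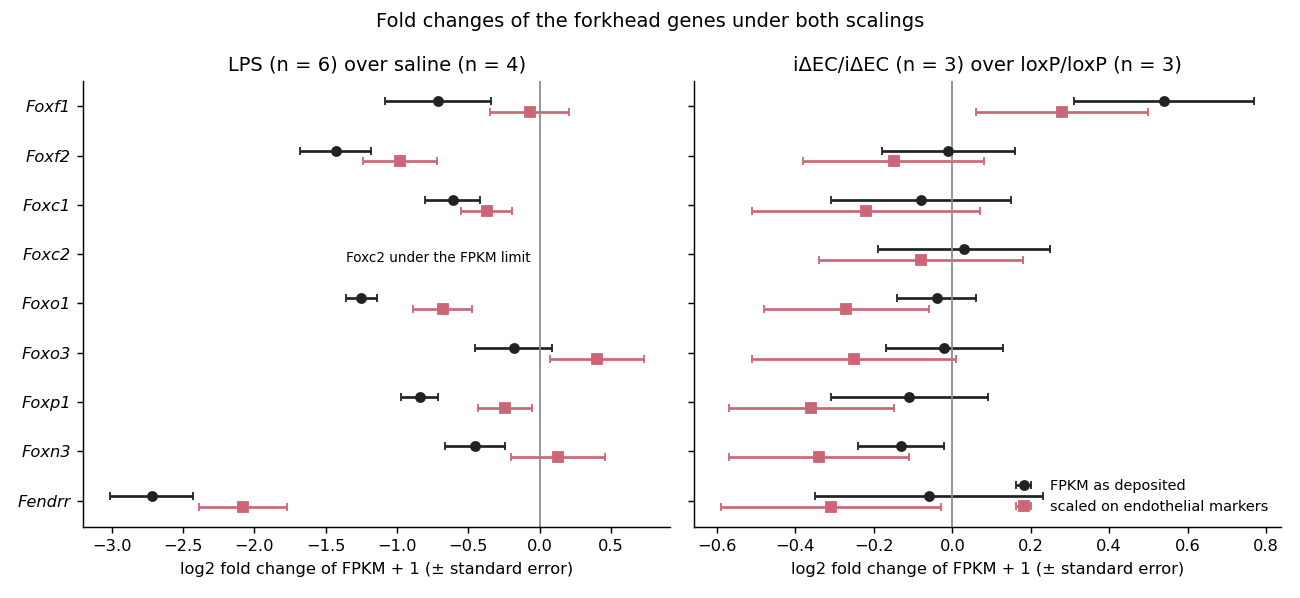
Log2 fold change of FPKM + 1 (horizontal axis, point ± SE from limma) of each forkhead gene tested and of Fendrr, as deposited (circles) and scaled on the endothelial marker list (squares). LPS over saline is on the left, where Foxc2 was not tested, and iΔEC/iΔEC over loxP/loxP is on the right. On the left all deposited values lie below 0, from -0.18 for Foxo3 to -2.72 for Fendrr, and Foxo3 and Foxn3 cross 0 on the endothelial scale; on the right the deposited values lie between -0.13 and 0.03 except for Foxf1, at 0.54, and on the endothelial scale they run from -0.36 for Foxp1 to 0.28 for Foxf1.

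Fendrr, whose transcript begins beside Foxf1 and runs the other way, moved further than its neighbour. It was 278, 174, 221 and 188 FPKM in saline 1 to 4, and 16.6 to 54.4 FPKM in LPS, with a median of 30.3. The groups were far apart. Its log2 fold change was -2.72 ± 0.29 (SE, adjusted p = 3.12e-05, limma), and it was -2.59 without saline 1 and -2.08 on the endothelial scale, passing the test each time. Within libraries, Fendrr was 0.323 to 0.748 times Foxf1 in saline, with saline 1 the lowest, and 0.0627 to 0.237 times Foxf1 in LPS. These ratios did not overlap. They were looked at after the values of the genes had been seen and are given as a description.

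**Figure D4:**
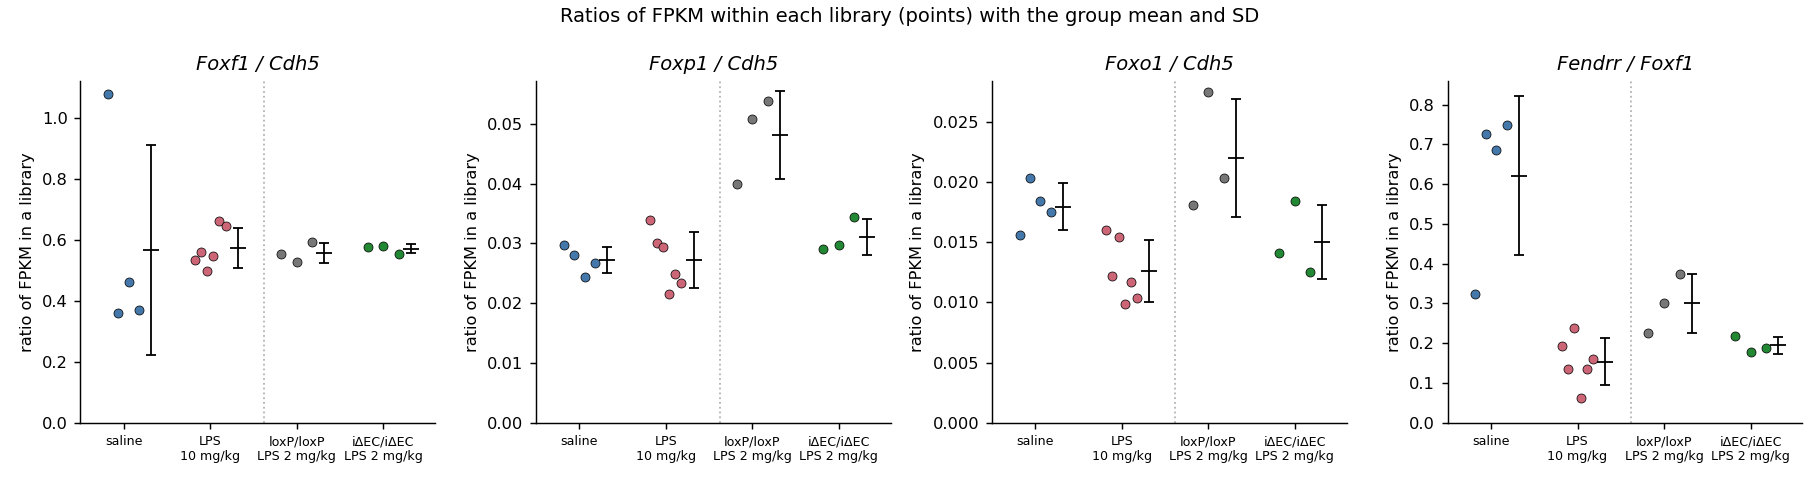
Ratio of FPKM between a pair of genes in the same library (vertical axes, linear from 0): Foxf1, Foxp1 and Foxo1 over the endothelial gene Cdh5, and Fendrr over Foxf1, with points for libraries, bars for the mean ± SD, and a dotted line between the experiments. Foxf1 over Cdh5 lies between 0.359 and 0.663 in all libraries of the first experiment except saline 1, at 1.08, whereas Fendrr over Foxf1 is at most 0.237 in the LPS libraries of that experiment and at least 0.323 in its saline libraries.

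The order of the levels was read within each group from the medians, in FPKM and so per length. In saline it ran Foxf1, Foxp1, Foxo1, Foxo3, Foxn3, Foxf2, Foxc1 and Foxc2. The ranges of neighbours overlapped between Foxo1, Foxo3, Foxn3 and Foxf2 and between Foxc1 and Foxc2, and Foxf1 and Foxp1 stood clear of the next gene. In saline 1, however, Foxo3 (24.6 FPKM) was above Foxp1 (23.5 FPKM). In LPS the median of Foxo1 came behind those of Foxo3 and Foxn3, and the ranges of neighbours overlapped from Foxp1 through Foxo3 and Foxn3 to Foxo1, with Foxn3 above Foxo1 in 4 of 6 libraries. Foxf1 alone made up 65.4% to 83.8% of the summed FPKM of all forkhead genes in saline and 55.1% to 75.6% in LPS. Relative to Cdh5, Foxf1 was 0.359 to 1.08 in saline (median 0.416) and 0.497 to 0.663 in LPS (median 0.556), so the ranges overlapped. Foxo1 relative to Cdh5 was 0.0156 to 0.0203 in saline and 0.00984 to 0.0160 in LPS, and these ranges met only through LPS 1, at 0.0160, and saline 1, at 0.0156.

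The other forkhead genes went in both directions. Of 37 further family members searched by symbol, 36 were found and 12 passed the FPKM limit, of which 2 rose, 4 fell and 6 passed in neither direction (limma), beside 29.5% and 23.7% of all genes. Foxn2 rose from 6.18 ± 0.278 to 11.4 ± 2.80 FPKM (mean ± SD, log2 fold change 0.75, adjusted p = 0.00249, limma). Foxp4, a close relative of Foxp1, rose from 2.84 ± 1.12 to 5.97 ± 0.917 FPKM (0.91, adjusted p = 0.00320). Both had groups apart and also passed on the endothelial scale, at 1.32 and 1.40. Foxo4, the third FOXO factor, fell from 19.0 ± 1.12 to 10.3 ± 0.900 FPKM (-0.83, adjusted p = 5.26e-05, limma). Foxj2 fell from 12 ± 0.692 to 8.33 ± 1.38 FPKM (-0.49, adjusted p = 0.00712, limma). The epithelial factors Foxa2 (1.41 to 0.593 FPKM, -0.59, adjusted p = 0.0118) and Foxa1 (0.801 to 0.362 FPKM, -0.39, adjusted p = 0.0304) fell too. Foxa1, at a mean of 0.362 FPKM in LPS, passed the limit of 0.5 FPKM through its saline level. The call of Foxa1 did not hold under several alternatives, among them no filter (adjusted p = 0.0629) and the fits without LPS 3, 4 or 5 or saline 4 (0.0526 to 0.0623). With the replicate block neither Foxa1 (adjusted p = 0.123) nor Foxa2 (0.0584) passed. Without saline 1 Foxa1 was under the FPKM limit, and the other 5 genes kept their calls, at 0.75 for Foxn2, 1.03 for Foxp4, -0.84 for Foxo4, -0.50 for Foxj2 and -0.50 for Foxa2. None of the 4 that fell passed on the endothelial scale, where Foxj2 was at 0.10. The epithelial marker list, whose most marked member Sftpc fell from 1320 to 280 FPKM, had 2 of 10 genes that fell, and 1 of 10 without saline 1. Foxj3 had groups apart without passing the test (5.77 to 4.18 FPKM, -0.37, adjusted p = 0.0605, limma).

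Genes known as targets of these factors were then described by lists, beside 29.5% of all genes that rose and 23.7% that fell. Without saline 1 these shares were 31.2% and 25.5%, and on the endothelial scale they were 44.3% and 6.28%. Of the 8 FOXF1 targets known from lung endothelium, 6 fell and 0 rose, with a median of -1.08. Without saline 1, 5 fell (median -0.93), and Acvrl1, a receptor gene of the BMP9 pathway, no longer passed (adjusted p = 0.0624, limma). Kdr, the main VEGF receptor gene of ECs, fell from 125 to 38.7 FPKM (-1.63, adjusted p = 0.000662, limma). Kit, a receptor tyrosine kinase of general capillary ECs, fell from 93.7 to 35.2 FPKM (-1.41, adjusted p = 9.24e-05). Tek, which encodes Tie2, fell from 264 to 119 FPKM (-1.20) and Flt1 from 65.0 to 29.9 FPKM (-1.13). On the endothelial scale 3 of these 8 fell and 2 rose. Of the 4 targets of FOXC1 and FOXC2, Itgb3, an integrin subunit also carried by leukocytes and platelets, rose from 4.68 to 18.1 FPKM (1.79), and the arterial genes Dll4 (81.4 to 30.7 FPKM, -1.22) and Hey2 (1.09 to 0.463 FPKM, -0.49) fell. Hey2, at a mean of 0.463 FPKM in LPS, passed the limit of 0.5 FPKM through its saline level. Without saline 1 Dll4 was at -1.71 and passed, and Hey2 was at -0.42 and did not (adjusted p = 0.0669, limma), so that 1 of 4 rose and 1 fell. On the endothelial scale 1 rose and 0 fell. Cxcr4 was at 51.1 and 57.2 FPKM (adjusted p = 0.751, limma).

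FOXO targets moved both ways. Of the 22 tested, 6 rose and 10 fell, with a median of 0.04, beside 29.5% and 23.7% of all genes. Without saline 1, 9 rose and 9 fell, with a median of -0.03, since Cdkn1a, Bnip3 and Pdk4 gained a call as higher and Bcl2l11 lost its call. Sod2, the mitochondrial superoxide dismutase, rose from 4.67 to 45.1 FPKM (2.98, adjusted p = 1.35e-06, limma), and Trib1 rose from 4.18 to 21.2 FPKM (2.22, adjusted p = 0.000263). Sesn1, a stress-response gene, fell from 34.0 to 7.65 FPKM (-1.47, adjusted p = 0.0189, limma), and Cdkn1a, the cell cycle inhibitor p21, was at 140 and 182 FPKM without passing (1.47, adjusted p = 0.0870). Without saline 1 Sesn1 was at -0.80 (adjusted p = 0.000463) and Cdkn1a at 2.43 (adjusted p = 4.23e-05), and both passed. Both of these means rest on saline 1, which held the highest saline value, at 93.8 FPKM for Sesn1 and 463 FPKM for Cdkn1a, where the saline medians were 14.5 and 32.4 FPKM. The longer motif GTAAACA was found in a promoter of 4 of the 19 FOXO targets with an entry (Bcl2l11, Sesn1, Trim63 and Txnip), beside 1095 of the 27025 genes with an entry (4.05%). The core TAAACA was found in 5 of these 19 genes (26.3%), beside 15.1% of the genes with an entry. On the endothelial scale 9 of 22 rose and 1 fell, near the shares of all genes on that scale (44.3% and 6.28%).

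Of the 24 genes that act on FOXO proteins, 10 rose and 5 fell, with a median of 0.13, beside 29.5% and 23.7% of all genes. Without saline 1, 10 rose and 4 fell, beside 31.2% and 25.5% of all genes. On the endothelial scale 13 rose and 0 fell, beside 44.3% and 6.28% of all genes. The 4 that moved most all rose. Ywhag, Ywhae and Ywhah, which encode 14-3-3 proteins, went from 11.7 to 41.9 FPKM (1.75), from 86.9 to 175 FPKM (0.99) and from 37.4 to 71.0 FPKM (0.93), and the kinase gene Sgk3 went from 2.27 to 5.12 FPKM (0.89), with groups apart in each. Of the 6 FOXM1 targets tested, which are cell cycle genes, 3 rose and 2 fell, also without saline 1. On the endothelial scale 4 of them rose and 0 fell, beside the same 44.3% and 6.28% of all genes. Cdc25b (7.16 to 2.61 FPKM, -1.13) and Cenpa (3.05 to 1.39 FPKM, -0.73) fell, while Aurkb (0.312 to 1.70 FPKM, 1.03) and Birc5 (0.372 to 1.22 FPKM, 0.71) rose. Aurkb and Birc5 averaged under the limit of 0.5 FPKM in saline and entered the test through their LPS level. Ccna2, the other gene that rose, averaged 0.332 FPKM in saline 2 to 4. The count of FOXM1 targets that rose is therefore partly set by the filter. Foxm1 itself was at 0.600 and 0.790 FPKM and did not pass (adjusted p = 0.384, limma). Leukocyte markers rose in the same libraries, and the part of leukocytes in these gene groups was not tested.

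**Figure D5:**
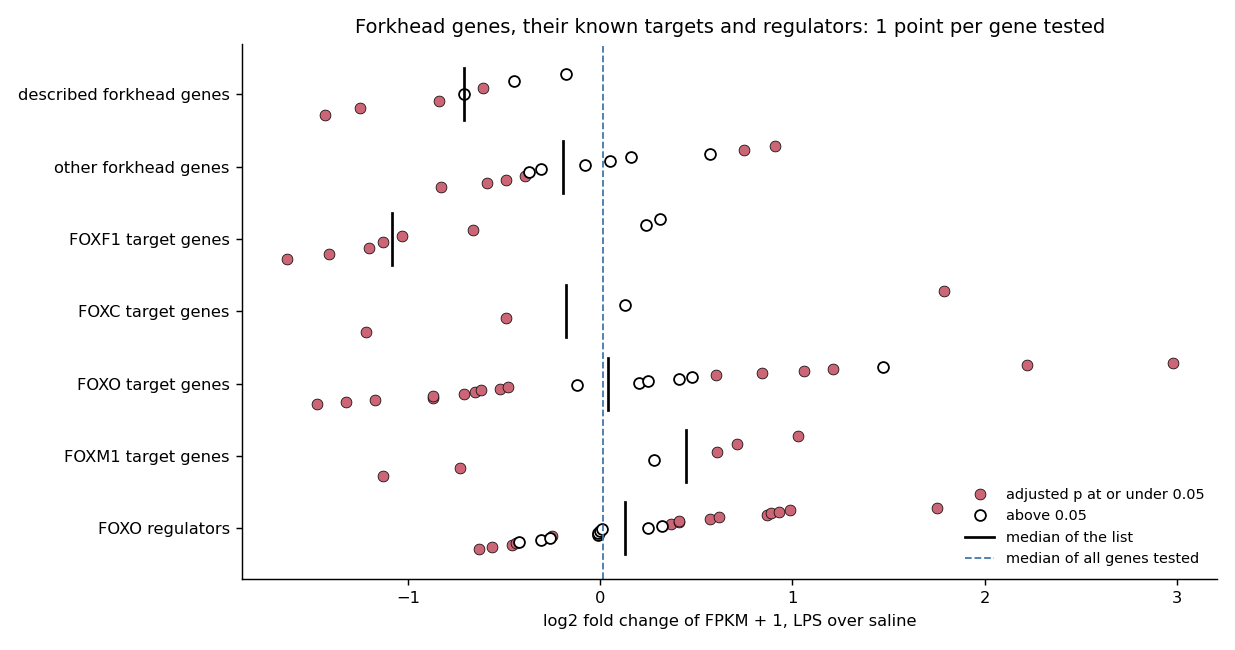
Log2 fold change of FPKM + 1, LPS over saline (horizontal axis), of every tested gene in the described forkhead genes, the other forkhead genes, target lists and FOXO regulators (rows; vertical offsets within a row only separate points). Filled points passed an adjusted p of 0.05, black bars are list medians and the dashed line is the median of all genes, at 0.013; the FOXF1 targets have the lowest median, -1.08, and the FOXO targets spread from -1.47 to 2.98.

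The second comparison asked whether loss of endothelial Fgfr1 changed the levels of the same genes in mice given 2 mg/kg LPS. Fgfr1 was first read as a check of the labels. It was 2.90, 2.91 and 2.59 FPKM in loxP/loxP 1 to 3 and 0.683, 1.41 and 1.15 FPKM in iΔEC/iΔEC 1 to 3, so that every iΔEC/iΔEC library was lower (log2 fold change -0.88 ± 0.16, exact permutation p = 0.1, which is the smallest that 3 against 3 allows). By limma 0 of the 8 forkhead genes and 0 (0%) of 14944 genes passed an adjusted p of 0.05, and Fgfr1 had an adjusted p of 0.96. The same fit gave 663 genes (4.44%) an unadjusted p under 0.05, with 0 of the 8 forkhead genes among them. With a block on the replicate numbers there were 1150, with 1 of the 8 (Foxf1) among them, and again 0 genes at an adjusted p of 0.05. The labels do not say that equal numbers mark a pair. In the unblocked setting limma-voom on rebuilt read numbers also called 0 genes.

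As deposited, Foxf1 had the largest difference of the 8 genes in this comparison. It was 240, 161 and 246 FPKM in loxP/loxP 1 to 3 and 358, 255 and 323 FPKM in iΔEC/iΔEC 1 to 3. All 3 iΔEC/iΔEC libraries lay above all 3 loxP/loxP libraries, as did 6.1% of all genes tested. The means were 216 and 312 FPKM, and the log2 fold change was 0.54 ± 0.23 (SE, 95% interval -0.01 to 1.09, adjusted p = 0.96, limma). With the replicate block the SE was 0.13 (unadjusted p = 0.011, adjusted p = 0.577, limma). The lowest iΔEC/iΔEC value was close to the highest loxP/loxP value. Cdh5 showed a similar shift, with 434, 306 and 414 FPKM in loxP/loxP and 618, 438 and 581 FPKM in iΔEC/iΔEC libraries, and the ratio of Foxf1 to Cdh5 was 0.528 to 0.593 and 0.556 to 0.582. On the endothelial scale, where the median of all genes was -0.187, the log2 fold change of Foxf1 was 0.28. It was then smaller in size than those of Foxp1 (-0.36) and Foxn3 (-0.34), and those of Foxo1 (-0.27), Foxo3 (-0.25), Foxc1 (-0.22), Foxf2 (-0.15), Foxc2 (-0.08) and Fendrr (-0.31) were also below 0. None of them passed (adjusted p 0.806 to 0.892, limma).

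Foxp1 was 17.3, 15.5 and 22.3 FPKM in loxP/loxP and 17.9, 13.0 and 20.0 FPKM in iΔEC/iΔEC libraries, and the groups overlapped (log2 fold change -0.11, 95% interval -0.58 to 0.36, adjusted p = 0.969, limma). Relative to Cdh5 it was 0.0399 to 0.0538 in loxP/loxP and 0.0290 to 0.0345 in iΔEC/iΔEC libraries, without overlap. Of 10 ratios, shares and sums compared, 2 more had groups apart between genotypes. Fendrr over Foxf1 was 0.226 to 0.374 in loxP/loxP and 0.179 to 0.219 in iΔEC/iΔEC libraries, and Foxf1 made up 59.8% to 68.2% and 69.2% to 75.7% of the forkhead sum. Each had an exact permutation p of 0.1, the smallest that 3 against 3 allows, and 0.2 after adjustment over 20 tests. These measures were chosen after the values had been seen.

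Foxo1 was 7.85, 8.39 and 8.43 FPKM in loxP/loxP and 8.69, 8.05 and 7.26 FPKM in iΔEC/iΔEC libraries. Its interval was the narrowest of the 8 (log2 fold change -0.04, 95% interval -0.28 to 0.20, adjusted p = 0.978, limma). Foxo3 was 8.30, 8.58 and 11.2 FPKM in loxP/loxP and 8.07, 10.4 and 9.02 FPKM in iΔEC/iΔEC libraries (-0.02, 95% interval -0.37 to 0.33). Both genes overlapped between genotypes. Foxn3 was 5.04, 5.22 and 5.57 FPKM in loxP/loxP and 4.47, 5.37 and 4.35 FPKM in iΔEC/iΔEC libraries (-0.13, 95% interval -0.39 to 0.12). Here too the groups overlapped, through iΔEC/iΔEC 2.

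Foxf2 was 0.672, 1.19 and 1.40 FPKM in loxP/loxP and 1.00, 0.998 and 1.14 FPKM in iΔEC/iΔEC libraries, on 27 to 60 reads (log2 fold change -0.01, 95% interval -0.41 to 0.39). Foxc1 was 1.70, 2.25 and 1.08 FPKM in loxP/loxP and 0.894, 1.86 and 1.84 FPKM in iΔEC/iΔEC libraries (-0.08, 95% interval -0.65 to 0.48). Foxc2 was 1.60, 1.05 and 1.21 FPKM in loxP/loxP and 0.691, 1.71 and 1.76 FPKM in iΔEC/iΔEC libraries (0.03, 95% interval -0.50 to 0.57). In all 3 genes the groups overlapped, and in Foxc1 and Foxc2 iΔEC/iΔEC 1 was the lowest library and the other two iΔEC/iΔEC libraries were close together. Fendrr was 54.2, 48.6 and 91.9 FPKM in loxP/loxP and 78.3, 45.6 and 60.4 FPKM in iΔEC/iΔEC libraries, again with overlap (-0.06, 95% interval -0.76 to 0.65). The intervals of Foxf2, Foxc1 and Foxc2 reach from -0.65 to 0.57 on the log2 scale, so that an absence of change was not shown.

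None of the 12 other forkhead genes tested passed in the second comparison, and none had groups apart, as 10.2% of all genes did. The target lists had 0 calls as well. Groups stood apart, lower in iΔEC/iΔEC, in 3 of 6 FOXM1 targets and 2 of 22 FOXO targets. They stood apart and higher in 1 of 8 FOXF1 targets, 1 of 22 FOXO targets and 1 of 24 FOXO regulators. Of all 14944 genes tested, 1520 (10.2%) had groups apart in either direction and 912 (6.1%) had them apart and higher. The list medians were 0.31 for FOXF1 targets, -0.31 for FOXC targets and -0.12 for FOXO targets. FOXM1 targets had a median of -0.17 and FOXO regulators one of 0.06, beside 0.014 for all genes. The endothelial list differed by 0.25 in its mean log2(FPKM + 1) and the epithelial list by -0.80, iΔEC/iΔEC less loxP/loxP, and the part of cell content in these values was not tested.

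The experiments were normalized separately and differ in LPS dose and genotype, so levels across them were set side by side without a test. By their medians Foxf1 was the highest and Foxp1 the next of the 8 genes in loxP/loxP mice, as in WT mice. Within libraries, Foxo3 stood above Foxp1 in saline 1, LPS 1 and LPS 5. Foxc2 had the lowest median in saline and LPS (0.283 and 0.247 FPKM). In the second experiment the lowest median was that of Foxf2, at 1.19 FPKM in loxP/loxP and 1.00 FPKM in iΔEC/iΔEC libraries, but its range overlapped that of Foxc2, which stood above Foxf2 in 1 of 3 loxP/loxP and 2 of 3 iΔEC/iΔEC libraries. Foxc1 and Foxc2, at medians of 1.70 and 1.21 FPKM in loxP/loxP libraries, were nearer to their values in saline 1 than to those of the other libraries of the first experiment. Foxo1 had a median of 8.39 FPKM in loxP/loxP libraries, between the medians of saline and LPS.

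For each forkhead gene the genes with the most similar pattern were named from the Pearson r of log2(FPKM + 1), with each library taken as its deviation from the mean of its group. The search ran over 16 libraries and 7366 genes averaging 5 FPKM or more in both tables, and the r is given as a description, since the libraries of an experiment share their scaling. Foxf1 was nearest to Baiap2 and Arl4d (0.97 each) and to Sorbs3 (0.96), and these values were 0.92 to 0.95 without saline 1. The genes nearest to Foxf2 included Gucy1b1 (0.83), a subunit of the nitric oxide receptor, and the matrix genes Postn (0.77) and Mfap4 (0.73). Foxp1 was nearest to Ptprm (0.95), a receptor phosphatase of EC junctions, to Btbd3 (0.95) and to Atp2a3 (0.92), at 0.92 to 0.95 without saline 1. Foxo1 had weaker matches, with Map4k3 (0.80), Map4k5 (0.78) and Als2cl (0.77). The genes nearest to Foxn3 included Tab2 (0.95) and Sf3b1 (0.94), and Foxo3 was nearest to Traf6 and Sik1 (0.95 each) and to Klf13 (0.94). Foxc1 was nearest to Ctsh (0.87), Mt1 and Ndrg1 (0.86 each), and Foxc2 to Depp1 and Edn1 (0.91 each) and to Arid5a (0.90). For Foxc1 and Foxc2 these values were 0.73 to 0.81 without saline 1.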

How the data were processed

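Bulk RNA-seq of pulmonary ECs was measured in 16 libraries. Per the paper's methods and the labels, the authors aligned the reads to GRCm38/mm10 with HISAT2 2.0.5 and counted them on genes with featureCounts 1.5.0-p3, and they deposited FPKM beside gene lengths for the 54532 genes of a table. The annotation release and strandedness are not given in the sources used here. The deposited FPKM, multiplied by gene length and by a factor per library found from its lowest values, gave whole read numbers for 100.0% of values above 0 (tolerance 0.02 reads), from which reads on genes per library were computed. These totals set the precision of low genes, and reads are not independent molecules. Median-of-ratios factors of the first table were 1, so its FPKM already carry that scaling. GENCODE M21 held 54409 of the identifiers, 98.3% with the same start and end. Altered symbols (11) in the later table were replaced by those of the earlier one.

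Within each experiment log2(FPKM + 1) was compared with limma 3.58.1 in R 4.3.3 (lmFit, eBayes with trend), on genes averaging 0.5 FPKM or more, with Benjamini-Hochberg adjustment over all genes tested and calls at 0.05. The script was tested on simulated data. Single genes were also compared by two-sided exact permutation tests, whose smallest p is 0.00476 for 4 against 6 libraries and 0.1 for 3 against 3. Python 3.11.15, pandas 2.3.3, numpy 2.4.6, scipy 1.17.1 and matplotlib 3.10.9 were used. Alternatives changed the pseudocount, the filter, the scaling, the test, the replicate block and the libraries included. Replicate numbers were taken from the labels. In the second experiment libraries with the same number deviated together from their group means (correlations over genes 0.248, 0.177 and 0.187). The labels state no pairing, so the block on these numbers stands only as an alternative. In the first experiment libraries with the same number did not deviate together (-0.209 to 0.097).

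Named genes were all 8 forkhead genes in every library, other forkhead genes that passed the test or had groups apart, the 4 genes of each list with the largest absolute log2 fold change, Fendrr, Fgfr1 and the 3 genes most like each member, of which 1 is not reported here. For the marker lists fewer than 4 genes are named, those beside which a result stands. The members and lists were chosen with earlier results of these data known. The target and regulator lists came from general knowledge and were not taken from the files.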

Additional observations from a re-analysis of the deposited data

Results flagged for a closer look

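In 18 group values, those of the 8 forkhead genes and Fendrr in the saline and LPS groups, the gap of the farthest library to its nearest neighbour was divided by the range of the group and set against Dixon's limit, which chance alone passes in about 1 in 20 groups. On FPKM 5 group values passed, and on log2(FPKM + 1) 3 passed. Foxo3 in saline 1 was 24.6 FPKM, while saline 2 to 4 ran from 7.88 to 9.38 FPKM (gap over range 0.911 on FPKM and 0.853 on log2, limit 0.829). Foxn3 in saline 1 was 12.9 FPKM, against 7.09 to 7.75 FPKM (0.887 and 0.855, limit 0.829). Foxc2 in LPS 6 was 0.501 FPKM, against 0.140 to 0.250 FPKM in the other LPS libraries (0.694 and 0.664, limit 0.625), on 26 reads. In saline 1 Foxf1 (859 FPKM, 0.867) and Foxc2 (1.83 FPKM, 0.849) passed on FPKM and not on log2. The neutrophil list summed to 1400 FPKM in saline 1, where the other saline libraries had 74.0 to 311 FPKM. The mural (121 against 26.6 to 51.7 FPKM) and leukocyte lists (365 against 104 to 148 FPKM) were also highest there. So were the epithelial (2860 against 1080 to 2120 FPKM) and endothelial lists (5740 against 3420 to 4240 FPKM). The macrophage and lymphocyte lists were not, and the part of any of these cells in the forkhead values was not tested.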

How the results depend on the processing

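LPS over saline rests on 4 saline libraries, 1 of which stands apart, and genotype on 3 against 3, and low reads limit Foxc1 and Foxc2. Foxf2, Foxo1 and Fendrr kept direction and call after LPS under every alternative (lowest sizes -0.98, -0.68 and -2.08, on the endothelial scale). On that scale Foxp1 (-0.24) and Foxc1 (-0.37) lost the call, Foxo3 (0.40), Foxn3 (0.13), Foxj2 (0.10), Foxj3 (0.17) and Foxk1 (0.52) changed sign, and calls numbered 6591 higher and 936 lower, against 4399 and 3529. Scaling on total reads gave calls to Foxf1 (-0.91) and Foxn3 (-0.62), and quantile normalization also did (-1.26 and -0.55). Over all genes calls numbered 3473 higher and 4622 lower on total reads, and 3570 and 4295 with quantile normalization. Foxj3 passed on both (adjusted p = 0.011 and 0.031) and with limma-voom (0.0497), and Foxk2 was at -0.14 and -0.11. Foxk2 (0.62) and Foxs1 (0.81) gained a call on the endothelial scale. The cause was not tested. With the replicate block Foxc1 (-0.59, adjusted p = 0.105, limma), Foxa1 (0.123) and Foxa2 (0.0584) lost their calls, Foxk2 was -0.04, and 3438 genes were higher and 2561 lower. Same-numbered libraries of the first experiment share only a number, and LPS 5 and 6 have no saline partner. In the second experiment, where a pairing is not labelled, the block changed no call (Foxf1 0.54, adjusted p = 0.577, limma). With it 0 genes were called, and 1150 had an unadjusted p under 0.05.

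There no forkhead gene passed under any alternative. Foxf2 was 0.01 with a pseudocount of 0.1 and with limma-voom and 0.07 with quantile normalization, and Foxc2 was 0.00 on total reads and -0.08 on the endothelial scale. Leaving out 1 library at a time, log2 fold changes after LPS ran from -0.90 to -0.29 for Foxf1, -0.33 to 0.18 for Foxo3, -0.55 to -0.26 for Foxn3 and -0.14 to 0.08 for Foxk1, and none of the calls of Foxf2, Foxc1, Foxo1, Foxp1 and Fendrr was lost. Foxc1 without saline 1 and with a filter at 1 FPKM was under the limit and gave no value. Between genotypes they ran from 0.34 to 0.68 (Foxf1), -0.16 to 0.10 (Foxf2), -0.25 to 0.11 (Foxc1), -0.09 to 0.26 (Foxc2), -0.09 to 0.02 (Foxo1), -0.11 to 0.10 (Foxo3), -0.24 to 0.06 (Foxp1) and -0.24 to 0.22 (Fendrr), all without a call.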
